A study of Mus musculus with 8 samples.

Results

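The actins of the mouse are encoded by 6 genes, Acta1, Acta2, Actc1, Actg2, Actb and Actg1, and their transcripts were followed in aortic smooth muscle cells given jasplakinolide. Each gene was represented by its probe set with a single gene symbol, the brightest one where there were several, and 5 of the 6 genes had such a probe set, 1 each, among 19938 genes. Actg1 had none: its 4 probe sets also carry the symbol of Actb, and they are described here as Actg1/Actb probe sets 1 to 4 without being given to either gene. The arrays were 4 of cultures that received 100 nM jasplakinolide and 4 of control cultures, all in DMEM plus 10% fetal calf serum over 24 h. All were primary aortic smooth muscle cells of strain C57Bl6 at passage 3 to 4, and a vehicle for the controls is not given in the labels. The labels do not say whether the 4 arrays of a group come from separate cultures or animals, so p-values measure the spread between these arrays, which may be technical. Levels are log2 RMA values, and differences are jasplakinolide minus control, so that a difference of 1 is a doubling.

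Actin is the protein of microfilaments and of the thin filaments of muscle, and its isoforms differ little in sequence. Acta1 encodes the alpha-actin of skeletal muscle and Actc1 that of the heart. Acta2 and Actg2 encode the alpha- and gamma-actins of smooth muscle, and Actb and Actg1 the beta- and gamma-actins that nearly all cells make. Jasplakinolide, a sponge product, binds filaments and shifts actin out of its monomer pool. Monomeric actin holds back the cofactors MRTF-A and MRTF-B of serum response factor (SRF), a transcription factor that binds the CArG box before many muscle and actin genes.

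Array medians lay between 7.30 and 7.39, and arrays correlated at 0.991 to 0.997 across probe sets. Jasplakinolide 4 and control 2 stood apart from the others in that their 1027 olfactory receptor genes had higher medians (5.05 and 5.04 log2) than on the other arrays (4.91 to 4.97), and results are also given without them. All 8 smooth muscle markers (Myh11, Cnn1, Tagln, Smtn, Lmod1, Des, Synpo2 and Kcnmb1) averaged above 6.76, the 95th percentile of the olfactory receptor genes, which are not expected in these cells. So did all 8 endothelial and all 6 macrophage markers and 3 of 5 measured markers of adventitial fibroblasts. Some endothelial markers were bright: control means ran from 8.08 (Vwf) to 13.41 (Emcn), with Cdh5 at 13.17 and Pecam1 at 12.48. The control means of the smooth muscle markers ran from 7.57 (Des) to 12.55 (Tagln). Bulk arrays do not show which cells an RNA came from. Fewer cells of a type and less RNA per cell cannot be told apart here.

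The promoters of 4 actin genes (RefSeq, GRCm38.p6) are shown, and the box that SRF binds was sought in them. Each is 250 bases long, ends at the base before the annotated start site and lies on the minus strand. Capitals mark CArG boxes and sequences that differ from one by 1 letter. The windows are chr8:123894776-123895025 for Acta1, chr2:114052876-114053125 for Actc1, chr19:34255374-34255623 for Acta2 and chr11:120348496-120348745 for Actg1. The RefSeq record of Acta2 ends at 34255585, within its window, so a longer transcript starts inside it. Actb (chr5:142903115-142907976) and Actg2 (chr6:83512909-83536251) had no entry among the promoter sequences used and are named by their gene spans only. Whether they carry a box was not examined.
Acta1: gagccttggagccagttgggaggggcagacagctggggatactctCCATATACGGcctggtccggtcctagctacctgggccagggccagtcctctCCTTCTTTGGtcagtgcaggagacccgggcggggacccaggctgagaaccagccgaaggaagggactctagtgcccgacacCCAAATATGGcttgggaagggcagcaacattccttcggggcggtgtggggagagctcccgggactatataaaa
Actc1: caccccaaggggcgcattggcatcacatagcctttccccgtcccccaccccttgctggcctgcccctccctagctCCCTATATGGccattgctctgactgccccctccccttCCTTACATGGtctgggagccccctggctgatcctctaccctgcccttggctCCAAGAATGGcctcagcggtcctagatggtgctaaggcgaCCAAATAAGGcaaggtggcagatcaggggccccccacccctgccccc
Acta2: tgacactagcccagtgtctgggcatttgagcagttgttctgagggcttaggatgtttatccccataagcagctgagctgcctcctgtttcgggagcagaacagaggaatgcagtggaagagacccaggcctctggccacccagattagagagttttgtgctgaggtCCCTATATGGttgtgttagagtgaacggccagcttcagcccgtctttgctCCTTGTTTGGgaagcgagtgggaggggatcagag
Actg1: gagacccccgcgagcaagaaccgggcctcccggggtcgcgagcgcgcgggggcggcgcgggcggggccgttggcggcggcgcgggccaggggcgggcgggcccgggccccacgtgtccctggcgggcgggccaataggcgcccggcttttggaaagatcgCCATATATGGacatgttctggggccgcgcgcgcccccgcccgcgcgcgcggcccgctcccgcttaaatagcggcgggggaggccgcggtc

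A CArG box, which reads as one on either strand, stands at -73 to -64 of Acta1, where -1 is the last base before the start, (CCAAATATGG), at -47 to -38 before Actc1 (CCAAATAAGG) and at -90 to -81 before Actg1 (CCATATATGG). The Acta2 window holds no such box but 2 sequences with 1 letter changed, CCCTATATGG at -84 to -75 and CCTTGTTTGG at -34 to -25. Acta1 holds 2 of these as well (CCATATACGG and CCTTCTTTGG), Actc1 3 and Actg1 none. Of 32851 promoter windows of the same length, 1.47% hold a CArG box and 17.5% a sequence with 1 letter changed. The motif CATTCC, known as the MCAT element bound by TEAD factors, was sought on both strands. It occurs once in Acta1, on the strand shown at -46 to -41, and once in Acta2, on the other strand at -146 to -141, and in 12.6% of all windows. The TATA motif TATAAA, sought on either strand, lies at -7 to -2 of Acta1 and in 12.4% of all windows. A match is a description of these letters and no measurement of binding.

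**Figure D1:**
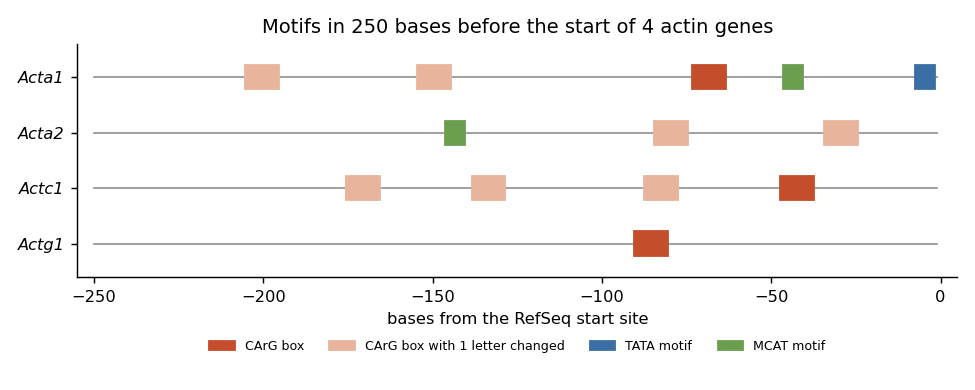
Motifs in the 250 bases before the RefSeq start of Acta1, Acta2, Actc1 and Actg1; the horizontal axis is the distance from the start site in bases, and colours mark the CArG box, the box with 1 letter changed, the TATA motif and the MCAT motif. Acta1, Actc1 and Actg1 each carry 1 CArG box, and Acta2 carries 2 boxes with 1 letter changed.

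Transcripts of 3 of the 5 actin genes measured rose with jasplakinolide, and none fell. Acta1 and Actg2 rose most, by 2.39-fold and 1.90-fold, and Acta2 rose by 1.19-fold, whereas Actc1, at 1.26-fold of control, and Actb, at 1.02-fold, did not pass the test. Of all 19938 genes, 0.436% (87) rose in the same fit (limma, adjusted p under 0.05) and 0.336% fell, and with the replicate number as a block 0.813% rose and 1.08% fell. In all 5 genes the lowest jasplakinolide array lay above the highest control array, as it did in 3.62% of all genes. Without jasplakinolide 4 and control 2 together 2 actin genes passed, Acta1 (1.20, adjusted p = 0.0197) and Actg2 (0.86, adjusted p = 0.0159), and in each fit without a single array the count was 2 as well, of the same 2 genes.

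Acta1, the alpha-actin of skeletal muscle, read 10.37, 10.40, 10.53 and 10.70 log2 on jasplakinolide arrays 1 to 4, against 8.92, 9.26, 9.58 and 9.20 on control arrays 1 to 4. Every treated array was high, with a gap of 0.79 between the groups, and the controls were spread more widely (SD 0.15 with jasplakinolide and 0.27 in control). The means were 10.50 ± 0.15 with jasplakinolide and 9.24 ± 0.27 in control (SD, n = 4 each). The difference was 1.26 ± 0.13 (SE; 95% interval 0.97 to 1.55; limma, adjusted p = 0.00289), which ranked 7 among all genes by rise. Within replicate numbers it was 1.45, 1.14, 0.95 and 1.50. It passed in all 8 fits with 1 array left out, at 1.15 to 1.37.

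The smooth muscle gamma-actin gene Actg2, whose product is best known from visceral smooth muscle, read 11.21, 11.28, 11.52 and 11.67 log2 with jasplakinolide and 10.39, 10.54, 10.62 and 10.41 in control. The groups were 0.59 apart. The means were 11.42 ± 0.21 with jasplakinolide and 10.49 ± 0.11 in control (SD, n = 4 each), a difference of 0.93 ± 0.10 (SE; 95% interval 0.70 to 1.16; limma, adjusted p = 0.00411), rank 12 among all genes. The replicate numbers gave 0.82, 0.73, 0.90 and 1.26, the last with jasplakinolide 4, the highest array for this gene. With 1 array left out it passed in all 8 fits, at 0.846 to 0.999.

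Acta2, the alpha-actin of vascular smooth muscle and the usual marker of these cells, was already bright in control cultures. It read 13.68, 13.72, 13.60 and 13.65 log2 with jasplakinolide, against 13.40, 13.40, 13.41 and 13.42 in control. The 4 controls agreed closely, and the lowest treated array was 0.18 above the highest of them. The means were 13.66 ± 0.05 with jasplakinolide and 13.41 ± 0.01 in control (SD, n = 4 each), and the difference of 0.25 ± 0.04 (SE; 95% interval 0.16 to 0.35; limma, adjusted p = 0.0337) ranked 197. The replicate numbers gave 0.28, 0.32, 0.19 and 0.22. Its call was lost with any single array left out, at differences of 0.23 to 0.27 (adjusted p 0.0593 to 0.128), without jasplakinolide 4 and control 2 together (0.25, adjusted p = 0.0902), and after median centring of the arrays (0.25, adjusted p = 0.107).

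Actc1, the alpha-actin of heart muscle, had 8.92, 9.02, 8.97 and 9.25 log2 with jasplakinolide and 8.53, 8.87, 8.90 and 8.52 in control. The groups were only 0.02 apart, with controls 2 and 3 close below the treated arrays and controls 1 and 4 well below them. The means were 9.04 ± 0.15 with jasplakinolide and 8.70 ± 0.21 in control (SD, n = 4 each). The difference of 0.33 ± 0.11 (SE; 95% interval 0.09 to 0.57) ranked 109, above that of Acta2, but its adjusted p was 0.297 (limma). It came to 0.38, 0.15, 0.07 and 0.73 within the replicate numbers. Leaving out 1 array gave 0.26 to 0.40, and the adjusted p stayed at 0.196 or above.

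Actb, the beta-actin of the cytoplasm and a common reference gene, was nearly level between the groups. It read 13.86, 13.87, 13.85 and 13.87 log2 with jasplakinolide and 13.84, 13.85, 13.83 and 13.81 in control. The lowest treated array was 0.0045 above the highest control, and the difference of 0.03 ± 0.04 (SE; 95% interval -0.06 to 0.11; limma, adjusted p = 0.929) ranked 8180 of 19938. The highest value of any probe set on any array was 14.17, so Actb lay near the top of the scale, and whether its signal was compressed there was not tested.

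The Actg1/Actb probe sets lay in the same narrow band. Probe set 1 averaged 13.60 ± 0.03 log2 with jasplakinolide and 13.57 ± 0.02 in control, and probe set 2 averaged 13.69 ± 0.03 with jasplakinolide and 13.65 ± 0.02 in control (SD, n = 4 each). Probe set 3 averaged 13.54 ± 0.02 with jasplakinolide and 13.50 ± 0.02 in control, and probe set 4 averaged 13.63 ± 0.03 with jasplakinolide and 13.59 ± 0.03 in control. The groups overlapped in all 4. Their differences were 0.03, 0.04, 0.04 and 0.04, each with an SE of 0.04, and none passed in a fit over 23410 annotated probe sets (limma, adjusted p 0.897 to 0.932), in which 0.641% passed. With 1 array left out the 4 differences stayed between 0.02 and 0.05. A separate value for Actg1 is not given, and how far any actin probe set also takes up signal of the other, similar isoforms was not tested.

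**Figure D2:**
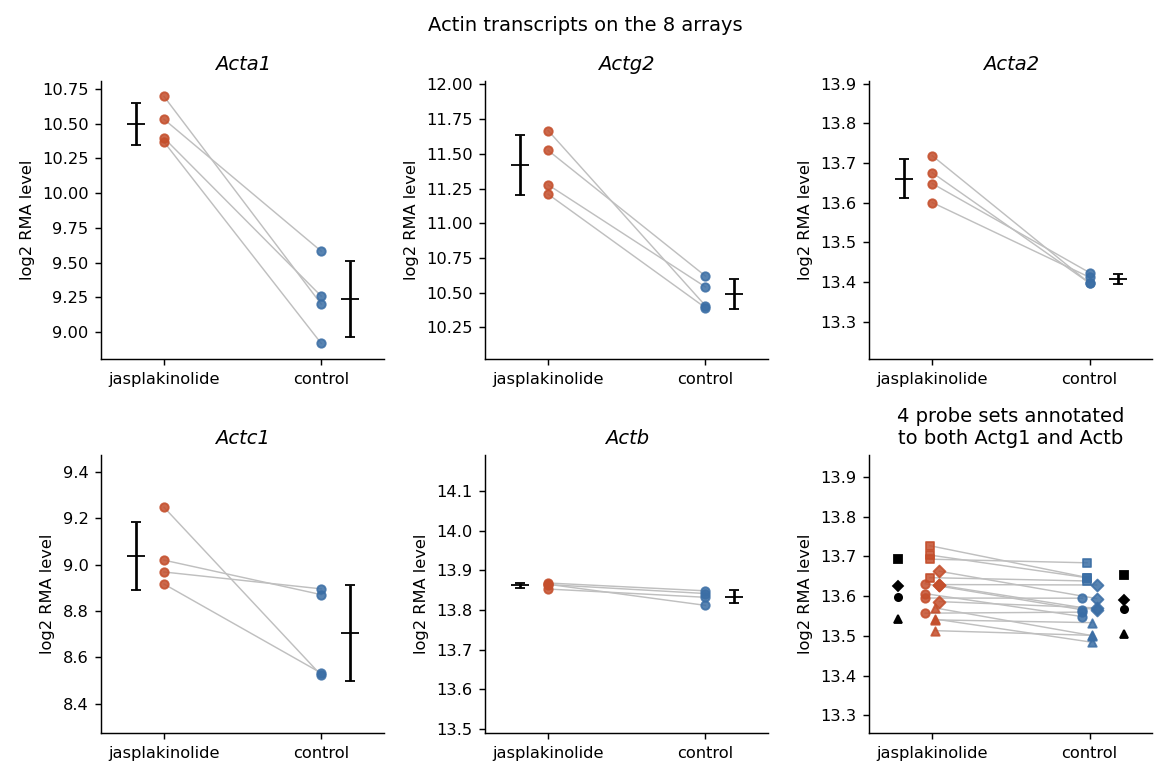
Log2 RMA level of each actin transcript on the 4 jasplakinolide and 4 control arrays, with mean and SD in black and grey lines joining arrays of the same replicate number; panels differ in vertical range, and in the last panel the 4 marker shapes are the Actg1/Actb probe sets with their means in black. All jasplakinolide arrays lie above all control arrays for Acta1, Actg2, Acta2, Actc1 and, by 0.0045, Actb, while the groups overlap for the shared probe sets.

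**Figure D3:**
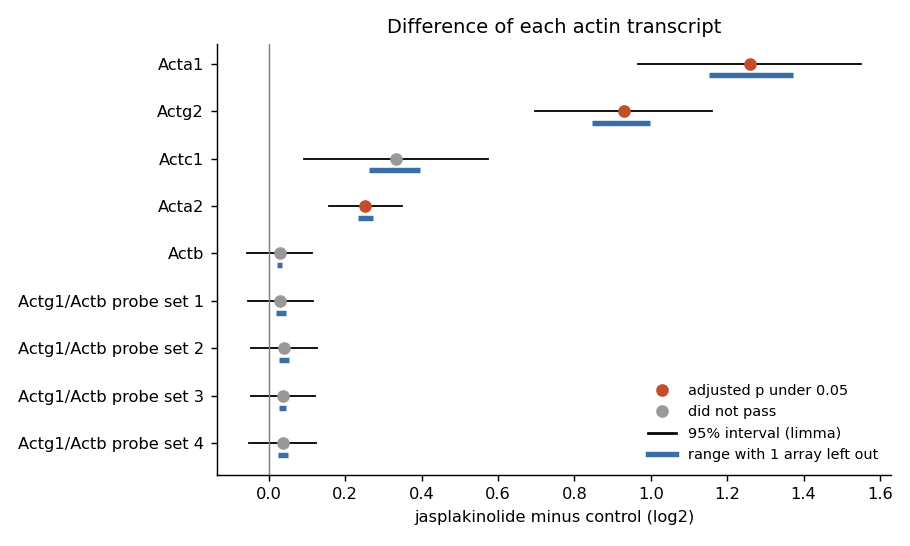
Jasplakinolide minus control (log2) of each actin transcript as a point with its 95% limma interval in black and, in blue, the range when 1 array is left out. Acta1 (1.26), Actg2 (0.93) and Acta2 (0.25) passed the test, and Actc1, Actb and the 4 shared probe sets did not.

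Whether 2 isoforms changed unequally was tested with the difference of their log2 values within each array, over all 10 pairs of the 5 genes (two-sided exact permutation test over 70 splits, Benjamini-Hochberg over the 10 pairs). The 2 groups did not overlap in 8 pairs, which reached the smallest p this design allows (exact p = 0.0286, adjusted p = 0.0357). The pairs share genes, so the 8 are not separate results, and several follow from the single-gene ranges given above. Acta1 minus Actb had to separate, since Acta1 had a gap of 0.79 while Actb stayed between 13.81 and 13.87. The same holds for Acta1 with Acta2 or Actc1, for Actg2 with Acta2 or Actb, and for Acta2 with Actb. Acta1 gained 1.01 on Acta2, 0.93 on Actc1 and 1.23 on Actb. It gained 0.33 on Actg2, with the within-array difference at -0.92 ± 0.07 with jasplakinolide and -1.25 ± 0.18 in control (SD, n = 4 each). Actg2 gained 0.68 on Acta2, 0.60 on Actc1 and 0.90 on Actb, and Acta2 gained 0.22 on Actb, with 4 of 4 treated arrays above every control in each of these pairs. Within the striated muscle actins, then, Acta1 gained on Actc1, and within the smooth muscle actins Actg2 gained on Acta2. Acta2, at up to 13.72, lay near the top of the scale as Actb did, and whether compression there widened the pairs with Acta2 or Actb was not tested.

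The 2 remaining pairs were not called. Actc1 minus Actb differed by 0.30 (exact permutation p = 0.0571, adjusted p = 0.0635). Its 95% interval from the pooled spread, 0.0036 to 0.60, lies just above 0, while the permutation test did not pass. Actc1 and Acta2 differed by 0.08 in response (exact permutation p = 0.543, adjusted p = 0.543), with an interval of -0.24 to 0.40 that leaves room for a difference as large as the 0.33 between Acta1 and Actg2. By size of difference the order was Acta1, Actg2, Actc1, Acta2 and Actb, in which the pairs of Actc1 with Acta2 and with Actb were those not called. With the replicate block, sign flips over 4 numbered pairs cannot give a p under 0.125, so 0 of 10 pairs could be called there, and the differences themselves are the same. Leaving out 1 array left the direction of all 10 pairs as it was, with Actc1 minus Acta2 between 0.01 and 0.14.

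**Figure D4:**
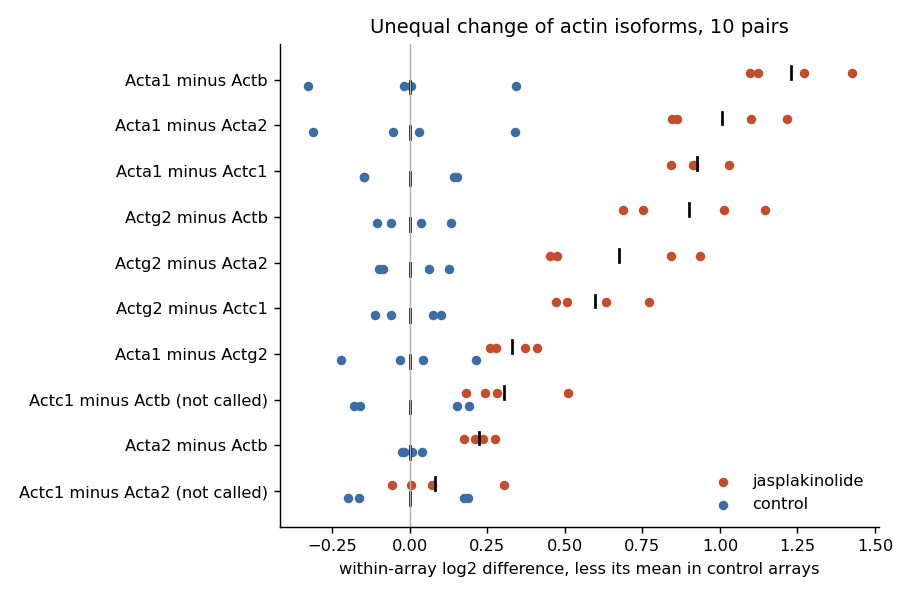
Within-array log2 difference of 2 actin isoforms, less its mean over the control arrays, for 10 pairs; points are the 4 jasplakinolide and 4 control arrays and black ticks the group means. The groups are apart in 8 pairs and overlap in Actc1 minus Acta2 and Actc1 minus Actb.

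The genes nearest to each called isoform by pattern were sought with the root mean square distance between gene-centred log2 values over the 8 arrays. Nearest to Acta1 were the calponin gene Cnn1 (distance 0.15), Actg2 (0.20) and Synpo2 (0.22), which encodes an actin-binding protein of muscle, where the spread of Acta1 about its own mean was 0.66. Nearest to Actg2, whose own spread was 0.49, were Myh11 (0.08), the myosin heavy chain of smooth muscle, the carbonyl reductase gene Cbr2 (0.10) and Synpo2 (0.12). Nearest to Acta2 were Nab2 (0.03), a corepressor of EGR transcription factors, Samd4 (0.04), an RNA-binding protein, and Phldb1 (0.04), a membrane-associated protein of the cell cortex. The pattern of Acta2 was small, with a spread of 0.13, and 763 genes lay within 0.1 of it, against 2 within 0.1 of Actg2 and 0 within 0.1 of Acta1. These distances describe the 8 arrays, which share the group difference.

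Among 18 smooth muscle genes whose products work with actin in contraction, 7 rose, none fell and 11 did not pass, with a median difference of 0.22 beside 0.01 over all genes. Cnn1, a thin-filament protein, had 12.48 ± 0.16 log2 with jasplakinolide and 11.14 ± 0.05 in control (SD, n = 4 each), a difference of 1.34 ± 0.07 (SE; limma, adjusted p = 0.000254). Myl9, a regulatory light chain of smooth muscle myosin, had 12.85 ± 0.08 with jasplakinolide and 11.98 ± 0.07 in control (SD, n = 4 each), a difference of 0.86 ± 0.06 (SE; limma, adjusted p = 0.000263). Synpo2 differed by 0.98 ± 0.15 and Myh11 by 0.81 ± 0.08 (SE; limma, adjusted p = 0.0219 and 0.00275). The 7 differences ran from 0.55 to 1.34, and 6 of the 7 genes passed whichever array was left out. The exception was Synpo2, which missed the threshold without jasplakinolide 3 (adjusted p = 0.0812), control 1 (0.0643) or control 4 (0.0899). In the same arrays 1 of 8 endothelial markers passed, Robo4 at -0.41 ± 0.06 (SE; limma, adjusted p = 0.0170), a guidance receptor. Of the 8, 5 had an unadjusted p under 0.05 and 7 a difference below 0. Their median was -0.16, beside 0.01 over all genes. How many of all genes had an unadjusted p under 0.05 is not given. Such counts, here and below, therefore do not show an excess over the background. Kdr, a receptor of vascular endothelial growth factor singled out after its values were seen, differed by -0.45 ± 0.15 (SE; limma, adjusted p = 0.323, and 0.0424 with the replicate block). Robo4 missed the threshold without jasplakinolide 1 or 2 or control 3 or 4 (adjusted p 0.0580 to 0.0729), and 3 of the 8 passed, lower, with the replicate block. The mean level of those 8 markers was 10.51 to 10.67 log2 with jasplakinolide and 10.78 to 10.84 in control, and their part in the rise of the actins was not tested. The 8 smooth muscle markers are, apart from Kcnmb1, also among the 18 genes above, so they are no separate set. Their mean level was 10.15 to 10.45 with jasplakinolide and 9.41 to 9.60 in control, and 6 of them rose. The largest of these rises was that of Kcnmb1, a potassium channel subunit, with 10.27 ± 0.29 with jasplakinolide and 8.27 ± 0.12 in control (SD, n = 4 each; limma, adjusted p = 0.000263).

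None of 5 measured markers of adventitial fibroblasts passed (limma; 2 had an unadjusted p under 0.05), and their mean level was 7.33 to 7.41 log2 with jasplakinolide and 7.48 to 7.67 in control. Decorin (Dcn) differed by -0.54 ± 0.12 and Dpt by -0.46 ± 0.11 (SE), and Dcn passed with the replicate block (limma, adjusted p = 0.0134). None of 6 macrophage markers passed (limma; 3 had an unadjusted p under 0.05), with a mean level of 8.17 to 8.27 with jasplakinolide and 8.15 to 8.26 in control. Their largest differences were Cd68 at -0.24 ± 0.07, which passed with the block (limma, adjusted p = 0.0424), and Lyz2 at 0.17 ± 0.05 (SE). The part of these cells in the actin differences was not tested.

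The other sarcomere genes of striated muscle did not pass with Acta1. Of 35 such genes (myosins, troponins, titin, nebulin and Z-disc proteins) 0 passed (limma), with the replicate block too, and 2 had an unadjusted p under 0.05, with a median difference of 0.07. A difference above 0 was found in 30 of the 35, a sign shared by most genes, as the median over all genes was 0.01. Of the 35, 16 averaged at or below the 95th percentile of the olfactory receptor genes. The largest differences were those of Myoz2, a Z-disc protein, at 0.22 ± 0.07 and Mybpc2, a myosin-binding protein of fast muscle, at 0.16 ± 0.07 (SE; limma, adjusted p = 0.241 and 0.587). Markers of skeletal muscle were dim, 5 of 10 at or below the 95th percentile of the olfactory receptor genes, with a mean level of 6.97 to 7.13 log2 with jasplakinolide and 6.92 to 7.14 in control. None passed (limma; 0 had an unadjusted p under 0.05). Mylpf, a fast myosin light chain, had 6.59 with jasplakinolide and 6.44 in control, and Actn3, a fast-fibre actinin, had 7.78 with jasplakinolide and 7.70 in control. Of the 8 heart muscle markers 2 were at or below that percentile and none passed (limma; 1 had an unadjusted p under 0.05), and the mean level was 7.32 to 7.54 with jasplakinolide and 7.26 to 7.43 in control. Nppa, a natriuretic peptide of the atria, differed by 0.23 ± 0.08 and Tnnt2, cardiac troponin T, by -0.13 ± 0.12 (SE). Apart from Myod1 and Myog, the skeletal muscle markers are also among the 35 sarcomere genes. So are the heart muscle markers apart from Nkx2-5, Nppa and Ryr2.

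None of 17 genes for SRF, its cofactors and factors that compete with them passed (limma), with a median difference of 0.02, and 4 had an unadjusted p under 0.05. Srf had 10.13 ± 0.03 log2 with jasplakinolide and 10.07 ± 0.06 in control, and Myocd, the muscle-specific cofactor myocardin, had 8.92 ± 0.17 with jasplakinolide and 8.79 ± 0.11 in control (SD, n = 4 each). Mrtfa and Mrtfb differed by 0.01 ± 0.04 and -0.06 ± 0.07 (SE). The largest differences were those of Fhl2, a LIM-only protein that binds SRF, at 0.20 ± 0.05 and Tead1, which binds the MCAT element, at 0.18 ± 0.04 (SE; limma, adjusted p = 0.132 and 0.116). Transcript levels say nothing of where these proteins are in the cell.

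Of 21 measured genes for the folding and modification of actin, 1 rose, none fell and 20 did not pass, with a median of 0.01. An unadjusted p under 0.05 (limma) was reached by 4 of the 21. The gene that rose was Msrb1, a methionine sulfoxide reductase known to reduce actin that MICAL enzymes have oxidised, with 10.97 ± 0.10 log2 with jasplakinolide and 10.41 ± 0.06 in control (SD, n = 4 each). The difference was 0.56 ± 0.06 (SE; limma, adjusted p = 0.00354). Setd3, which methylates a histidine of actin, differed by 0.11 ± 0.07 (SE) and did not pass. Naa80 and Actmap, which process the amino terminus of actin, are not analysed here. Of 20 genes for monomer binding, severing and turnover, 2 rose, none fell and 18 did not pass, with a median of 0.06. Here 7 of the 20 had an unadjusted p under 0.05 (limma). With the replicate block 3 rose, the added gene being Cap2, an actin-binding cyclase-associated protein, at 0.39 ± 0.08 (SE; limma, adjusted p = 0.0683, and 0.0249 with the block). Dstn (destrin), which severs and depolymerises filaments, had 12.80 ± 0.05 log2 with jasplakinolide and 12.45 ± 0.08 in control (SD, n = 4 each), a difference of 0.35 ± 0.05 (SE; limma, adjusted p = 0.0233). Scin, a severing protein of the gelsolin family, differed by 0.47 ± 0.07 (SE; limma, adjusted p = 0.0215), at levels of 6.69 with jasplakinolide and 6.22 in control, both below the 95th percentile of the olfactory receptor genes. Of the 8 fits that lack an array, each passed in only 2: Dstn without control 1 or 2, and Scin without jasplakinolide 3 or control 2. Msrb1 passed in all 8. Of 14 measured actin-like and actin-related genes none passed (limma; 2 had an unadjusted p under 0.05), with a median of 0.07, and the largest differences were Actr6, a subunit of chromatin remodelling complexes, at -0.20 ± 0.17 and Actbl2, an actin-like gene, at 0.14 ± 0.10 (SE; limma, adjusted p = 0.860 and 0.787).

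**Figure D5:**
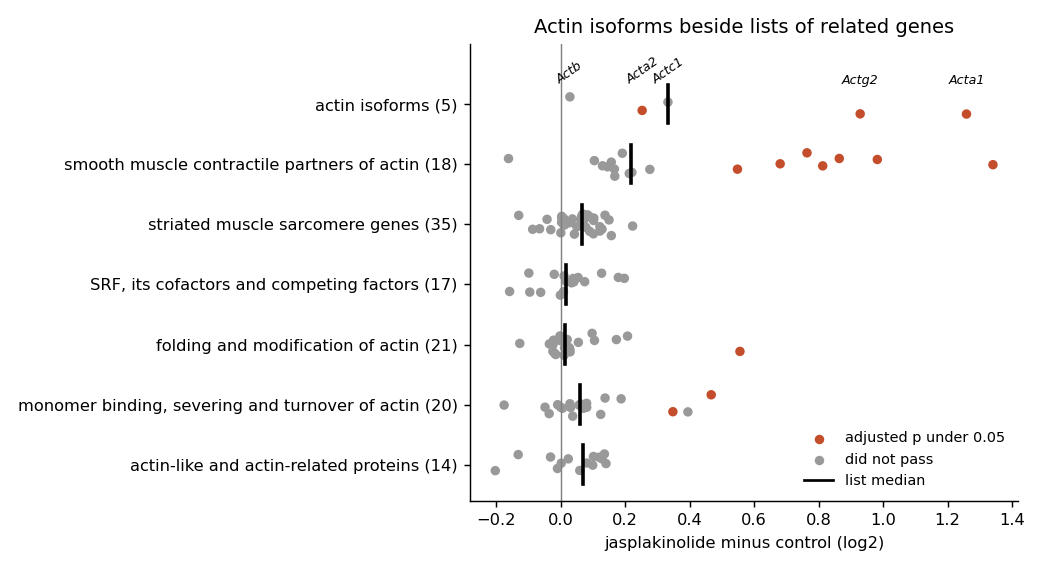
Jasplakinolide minus control (log2) of each gene of the actin isoforms and of 6 lists of related genes, with the number measured in brackets; coloured points passed at an adjusted p under 0.05 and black bars are list medians. Genes past the test lie among the actins (3 of 5), their contractile partners (7 of 18), folding and modification (1 of 21) and turnover (2 of 20).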

How the data were processed

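Labelled RNA of 8 samples, 4 per group, was measured on Affymetrix arrays. Per the submitters' processing notes, the authors used RMA and Affymetrix Expression Console, whose versions are not given in the labels. The deposited table holds a log2 value for each of 35556 probe sets and each array, between 2.29 and 14.17. Background correction and the normalization of the scanner data could not be varied. The platform annotation gave 1 symbol to 21789 probe sets, several to 1621 and none to 12146. Identifiers of 21698 matched the RefSeq gene table, which changed 0 symbols. Dim probe sets were kept, and the number of arrays limits the precision.

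All 19938 genes were fitted with limma 3.58.1 in R 4.3.3 (two-sided, Benjamini-Hochberg over all genes, threshold 0.05). In simulated data of this comparison (19938 genes, 200 changed, 5 runs) the fit recovered 27.5% of changes of 0.25, 76.1% of 0.5 and 98.2% of 1 on the log2 scale, and 5.99% of its calls were false. The simulated noise was drawn separately for each gene and array. Deviations shared by many genes of an array, as the real arrays have, were left out, so these rates may not hold for the real arrays. Isoform pairs were compared with scipy 1.17.1. The pair test had been planned for 15 pairs, and 10 remained without Actg1. Figures were drawn with matplotlib 3.10.9.

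The members, gene lists and tests were chosen with earlier results of these data known. Named are the 6 actin genes; the 3 nearest genes of each called actin, predicted genes left out; up to 4 genes past the test per list, or the 2 with the largest difference; and Srf, Myocd, Mrtfa, Mrtfb, Setd3 and Naa80. Cbr2, Nab2, Samd4 and Phldb1 come from the distance rule. Outside these rules, values are also given for Vwf, Emcn, Cdh5, Pecam1, Kdr, Des, Tagln and Cap2. The Actg1/Actb probe sets were added after the values were seen.

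As a check of pairing, each array's deviations from its group's means were correlated between groups across genes: the 4 pairs with equal numbers gave 0.24 to 0.56 and other combinations -0.62 to 0.52. Equal numbers did not always correlate best: jasplakinolide 4 gave 0.52 with control 2 and 0.44 with control 4, and jasplakinolide 2 gave 0.24 with control 2. The check thus does not settle whether the numbers pair the samples, and the labels do not state it. The main fit and the permutation test do not use the numbers, and the replicate block is given beside them as another setting.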

Additional observations from a re-analysis of the deposited data

How the results depend on the processing

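Acta1, Actg2, Actc1 and Actb kept their direction and their side of the threshold under the 9 other processing settings, all 8 fits without 1 array and the fit without jasplakinolide 4 and control 2 together, which was chosen after seeing the data. The 9 settings were the replicate block, the brighter 75% or 50% of genes, median centring, array weights, cyclic loess, quantile normalization again, the mean of each gene's probe sets and a robust prior with an intensity trend. Over these 9, the difference of Acta1 ran from 1.21 to 1.26, that of Actg2 from 0.87 to 0.93, that of Actc1 from 0.33 to 0.37 (adjusted p 0.0744 to 0.299) and that of Actb from 0.0040 to 0.04. Acta2 ran from 0.23 to 0.26 and lost its call after median centring (0.25), without jasplakinolide 4 and control 2 together (0.25) and without any 1 array (0.23 to 0.27). The count of actin genes past the test was 2 to 3 in all of these, and 2 at an adjusted p under 0.01 (2 to 2 with 1 array left out). The cause was not tested; a fit without an array has fewer samples. In the fits over all 19938 genes at the same threshold, the share that passed ranged from 0.216% without control 4 (43 genes) to 2.29% with array weights (457 genes), against 0.772% (154 genes), and was 1.89% (377) with the replicate block. Over the brighter 75% of genes it was 1.54% (231 of 14953) and over the brighter 50% 2.97% (296 of 9969). With the replicate block 3 actin genes passed (adjusted p 0.0123 for Acta1, 0.0134 for Actg2 and 0.0411 for Acta2). The isoform pairs called with the replicate block were 0 against 8, since 4 sign-flipped pairs cannot reach the threshold, and 8 after quantile normalization again, cyclic loess or the mean of probe sets. No other call named for the actins changed with the block. The Actg1/Actb probe sets passed in none of their fits. Among the measured actin genes, Actc1 lay nearest to the 95th percentile of the olfactory receptor genes. The mean of Actc1 was 2.11 above that percentile, while Actb was 7.09 above it. Whether low signal limited the result for Actc1 was not tested.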

Other observations

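The arrays kept the same order for Acta1 and Actg2. With jasplakinolide, array 4 was the highest for both (10.70 for Acta1 and 11.67 for Actg2), followed by arrays 3, 2 and 1. In control, array 3 was the highest for both (9.58 and 10.62), followed by arrays 2, 4 and 1. Actc1 shared this order in part: jasplakinolide 4 was its highest treated array (9.25) and jasplakinolide 1 its lowest (8.92). Controls 3 (8.90) and 2 (8.87) were its highest controls, but its lowest was control 4 (8.52). Jasplakinolide 4 is also an array with a higher olfactory receptor median. Acta2 did not share the order: its highest array with jasplakinolide was array 2 (13.72) and its lowest array 3 (13.60). No value of the 5 actin genes or the 4 Actg1/Actb probe sets lay far from the others of its group by Dixon's test, in 18 groups of 4 arrays.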
